A study of Homo sapiens with 6 samples.

Results

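Mitochondrial ribosomal protein genes encode the protein part of the mitoribosome, the ribosome that works inside mitochondria. They were taken from the array by symbol: each probe set annotated to a single gene symbol starting with MRPL (large subunit) or MRPS (small subunit) and a number, pseudogenes left out, with the brightest probe set kept for each gene. This gave 73 of the 18417 genes measured, 48 MRPL and 25 MRPS, from 77 probe sets. A further 4 genes of the family, MRPL51, MRPS6, MRPS24 and MRPS28, have probe sets that carry several gene names, so they are not among the 73. The cells are RL, a long-established line from a human B-cell lymphoma carrying the t(14;18) translocation, and the compound is LY317615 (enzastaurin), which blocks the beta form of protein kinase C. RNA from LY317615-treated cells (3 arrays) and from untreated cells (3 arrays) was read on Affymetrix Gene 1.0 ST arrays, and each sample title carries 48 h. The dose is labelled 2.5 mM, whose unit was not checkable, and a vehicle for untreated cells is not named. All 6 arrays come from 1 cell line, and the labels do not say whether replicates were separate cultures, so the spread between arrays may be partly technical.

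The mitoribosome translates the few messages of mitochondrial DNA, which encode core subunits of the respiratory chain and of ATP synthase. Its ribosomal RNA comes from mitochondrial DNA, whereas its proteins are encoded in the nucleus, made in the cytosol and imported. Some of these proteins are relatives of bacterial ribosomal proteins and others were added in the mitochondrial lineage, and dividing cells with high MYC activity are known to express the family strongly. The small subunit binds the message and decodes it, and the large subunit joins amino acids and passes the new chain to the inner membrane.

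The arrays had median probe-set intensities of 60.0 to 61.4 after LY317615 and 56.7 to 58.2 untreated. Across genes, log2 intensities had Pearson correlations of 0.994 to 0.997 among LY317615 arrays, of 0.997 among untreated arrays and of 0.982 to 0.989 between arrays of different groups. Array 3 of the LY317615 group stood apart, with a limma weight of 0.376 where the remaining arrays had 1.04 to 1.51. On it, 33 of the 73 genes had their lowest value, against 18 on LY317615 array 1 and 15 on LY317615 array 2. The same count was not made over all genes, so it does not set the family apart. Of the B-cell markers listed for the check, the 4 that were measured had mean log2 intensities of 9.87 to 11.22 after LY317615 and 10.35 to 11.50 untreated. The 15 markers of T cells, myeloid cells, fibroblasts, epithelium and erythroid cells lay at 2.81 to 6.44 after LY317615 and at 2.88 to 6.25 untreated.

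RNA for most mitochondrial ribosomal proteins was lower in RL cells after LY317615. Of the 73 genes, 48 fell (65.8%), 2 rose and 23 did not pass limma's test at a Benjamini-Hochberg adjusted p of 0.05 over all genes. Over all 18417 genes, 35.7% were called in either direction, 21.4% lower and 14.2% higher. The median log2 fold change of the 73 genes was -0.36, against 0.02 over all genes. The falls were moderate: MRPS22 fell 2.05-fold, MRPL13 1.99-fold, MRPL58 1.88-fold and MRPS18A 1.74-fold. The size for MRPL13 is uncertain, as its treated level was not shown to be above background. Only MRPS22 had a measured change of 1 or more on the log2 scale. The 3 arrays of LY317615 lay below all 3 untreated arrays for 56 genes and above them for 4, while 27.8% of all genes were lower and 22.0% higher without overlap. In bulk RNA, fewer cells of a type and less RNA per cell cannot be told apart.

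Markers of cell type moved on the same arrays. Of the 4 measured B-cell markers, MS4A1, PAX5 and CD79A fell, with log2 fold changes of -0.81, -0.48 and -0.28, and CD79B did not pass (-0.01). The summed intensity of these 4 genes was 6093 to 6642 over the LY317615 arrays, against 8273 to 8630 over the untreated arrays. Of the 15 markers of other cell types 5 rose and 0 fell, the 5 being CD14 (0.50), CD3E (0.45), CD8A (0.40), CSF1R (0.37) and COL1A2 (0.27), all given as log2 fold changes. Their sum over 15 genes was 571 to 656 with LY317615, against 489 to 502 untreated, without overlap. Over all genes, 21.4% were called lower and 14.2% higher. The files hold no detection calls, so the levels of these 15 genes were not shown to be above background. Brighter genes were lower as a whole after LY317615, and that trend was not taken off the marker values. The part of the markers in the falls of the family was not tested.

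**Figure D1:**
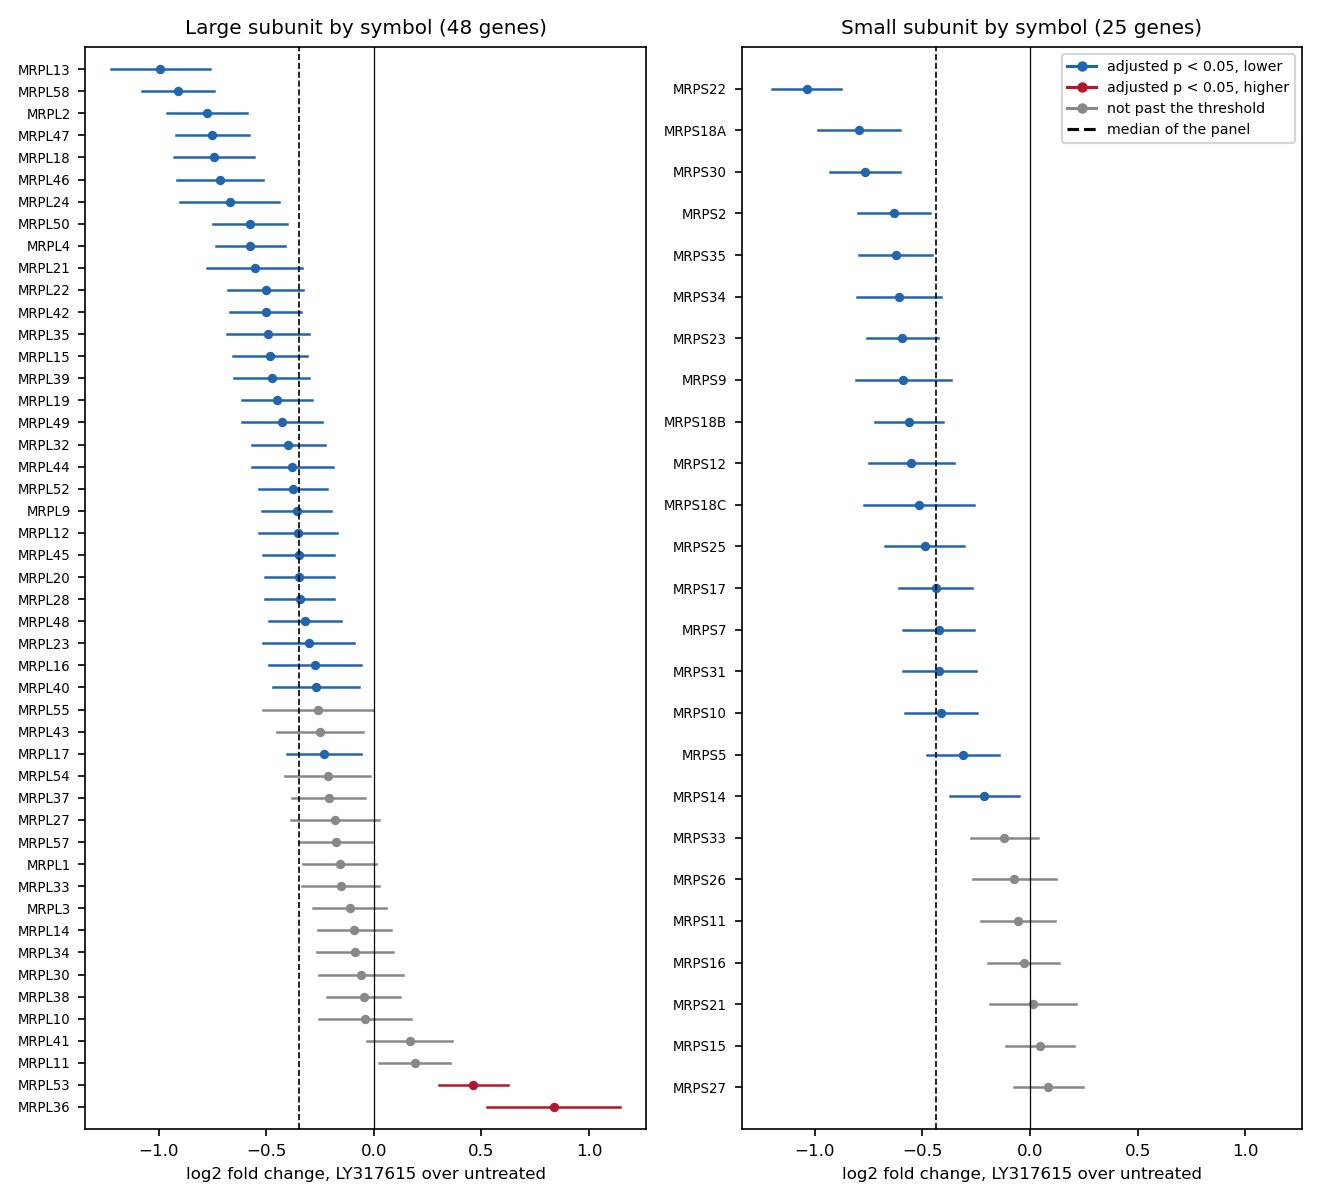
Log2 fold change of LY317615 over untreated (x axis) for each of the 48 MRPL genes (left) and 25 MRPS genes (right), with 95% confidence intervals of the limma fit; blue points were called lower, red points higher, grey points did not pass, and the dashed line is the median of the panel. All but 7 genes lie left of 0, and MRPL53 and MRPL36 are the only red points.

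These falls went with a general trend, since brighter genes were lower as a whole after LY317615. When the median change of all genes of like intensity (20 equal bins) was taken off each gene, the median of the 73 genes was -0.22, and 54 of them stayed below 0. After cyclic loess, a scaling that removes such trends, 41 of the 73 genes were called lower and 5 higher, against 17.8% and 12.9% of all genes. The 5 genes called higher after that scaling were MRPL36, MRPL53, MRPL11, MRPL41 and MRPS27. Without LY317615 array 3, 45 genes were called lower and 2 higher.

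The gene with the largest fall was MRPS22, a small-subunit protein with no bacterial relative whose inherited loss causes respiratory chain disease. MRPS22 (probe set 8083011) had log2 intensities of 7.51, 7.52 and 7.59 on the LY317615 arrays, against 8.56, 8.62 and 8.55 on the untreated arrays. Each LY317615 array lay about 1 log2 unit below each untreated array. The change was -1.04 ± 0.07 (SE, adjusted p = 3.41e-05).

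MRPL13, the relative of a bacterial large-subunit protein that binds ribosomal RNA, had log2 intensities of 5.62, 5.80 and 5.43 with LY317615, against 6.60, 6.69 and 6.53 untreated. Each LY317615 array of MRPL13 lay below every untreated array, with LY317615 array 3 the lowest. Its measured change was -0.99 ± 0.10 (SE). The files hold no detection calls, and the mean of MRPL13 with LY317615 (5.62) lay within the range of the markers of other cell types, so that level was not shown to be above background and the size of the fall is uncertain. The same holds for the treated means of MRPL40, MRPL54, MRPS18C and the non-member KGD4. MRPL58, also known as ICT1, releases the peptide from stalled mitoribosomes and is at the same time a fixed part of the large subunit. It had values of 8.58, 8.50 and 8.52 with LY317615, against 9.41, 9.51 and 9.40 untreated, and fell by 0.91 ± 0.07 on the log2 scale (SE). The 3 treated arrays of MRPL58 lay close together (SD 0.040).

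Upstream bases of 5 genes are shown because they are the start-site neighbourhoods of the genes that moved furthest and of a gene that moved the other way. They are the 150 bases before the RefSeq start of the 2 MRPL and 2 MRPS genes with the largest falls that the promoter table holds clear of other annotated genes, and of MRPL53, which rose. Capitals mark the letters CCGGAAG or, on the other strand, CTTCCGG, the core bound by ETS factors such as GABP. The windows are chr17:75012520-75012669 (plus strand) for MRPL58, chr6:159789662-159789811 (plus) for MRPL18, chr3:139343844-139343993 (plus) for MRPS22, chr6:43687792-43687941 (minus) for MRPS18A and chr2:74472681-74472830 (minus) for MRPL53, all from RefSeq on GRCh38.p14 and written 5′ to 3′.
MRPL58: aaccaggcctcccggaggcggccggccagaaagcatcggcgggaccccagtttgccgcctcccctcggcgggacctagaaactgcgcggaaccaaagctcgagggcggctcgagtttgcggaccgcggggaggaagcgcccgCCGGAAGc
MRPL18: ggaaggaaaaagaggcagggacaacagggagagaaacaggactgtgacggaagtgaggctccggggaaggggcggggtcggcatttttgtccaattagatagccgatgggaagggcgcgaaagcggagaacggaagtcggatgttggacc
MRPS22: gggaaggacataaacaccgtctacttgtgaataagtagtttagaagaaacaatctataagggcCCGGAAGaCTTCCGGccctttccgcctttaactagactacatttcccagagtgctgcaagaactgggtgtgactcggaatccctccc
MRPS18A: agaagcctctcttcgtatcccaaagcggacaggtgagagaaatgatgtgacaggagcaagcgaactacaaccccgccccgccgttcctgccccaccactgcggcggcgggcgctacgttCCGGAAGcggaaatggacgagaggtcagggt
MRPL53: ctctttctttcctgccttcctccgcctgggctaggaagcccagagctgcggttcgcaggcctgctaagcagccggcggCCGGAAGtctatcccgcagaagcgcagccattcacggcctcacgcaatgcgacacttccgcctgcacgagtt
MRPS22 carries the motif on each strand with 1 base between the copies, MRPL18 has no match in this window, and MRPL53, which rose, has a match as do 3 of the 4 genes that fell.

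The next largest falls of the large subunit were in MRPL2, MRPL47, MRPL18 and MRPL46. MRPL2, whose bacterial relative lies by the site where peptide bonds form, had log2 intensities of 9.61, 9.68 and 9.48 with LY317615, against 10.43, 10.35 and 10.31 untreated. Its change was -0.77 ± 0.08 (SE). MRPL47 sits at the exit of the peptide tunnel and had values of 9.59, 9.62 and 9.56 with LY317615, against 10.27, 10.43 and 10.33 untreated. All treated arrays of both genes lay below the lowest untreated array. MRPL18 and MRPL46 belong to the central protuberance, the crest of the large subunit that faces the small one. MRPL18 had values of 9.79, 9.57 and 9.62 with LY317615, against 10.42, 10.38 and 10.42 untreated. MRPL46 had values of 9.22, 9.20 and 9.03 with LY317615, against 9.75, 9.96 and 9.87 untreated. MRPL47, MRPL18 and MRPL46 changed by -0.75 ± 0.08, -0.74 ± 0.08 and -0.71 ± 0.09 (SE), and in none of them did the groups overlap.

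The other 24 MRPL genes that fell changed by -0.67 to -0.23. They include MRPL24, MRPL50, MRPL4, MRPL21, MRPL22 and MRPL42, which fell by 0.50 to 0.67 on the log2 scale. MRPL35, MRPL15, MRPL39, MRPL19, MRPL49, MRPL32, MRPL44, MRPL52, MRPL9, MRPL12, MRPL45, MRPL20, MRPL28, MRPL48 and MRPL23 changed by -0.49 to -0.30. MRPL16, MRPL40 and MRPL17 changed by -0.27, -0.27 and -0.23. MRPL12, the mobile stalk protein that recruits translation factors, had values of 8.61, 8.55 and 8.76 with LY317615, against 8.96, 9.02 and 9.02 untreated, a change of -0.35 ± 0.08 (SE).

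**Figure D2:**
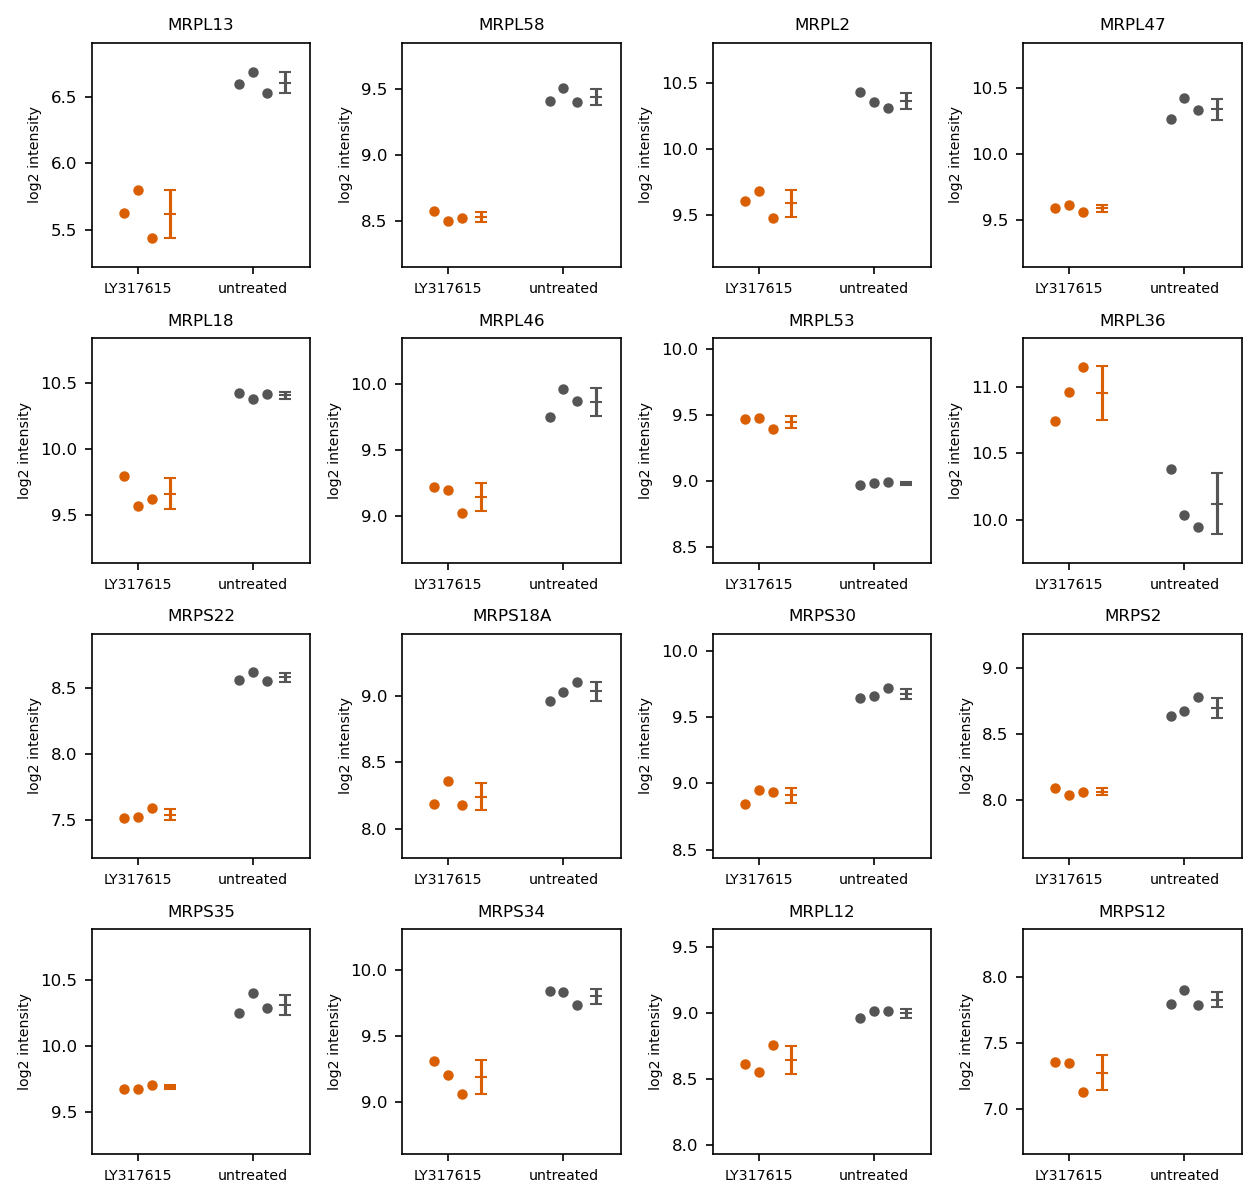
Log2 intensity on each array (y axis, the same span of log2 units in every panel) for 16 genes, LY317615 left and untreated right; points are the 3 arrays of a group in replicate order, and the bar beside them is mean ± SD. MRPL53 and MRPL36 are higher with LY317615, and the other 14 genes lower, without overlap in any panel.

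MRPL53 and MRPL36 rose. MRPL53, a large-subunit protein with no bacterial relative, had log2 intensities of 9.47, 9.48 and 9.40 with LY317615, against 8.97, 8.99 and 9.00 untreated. The change was 0.46 ± 0.07 (SE, adjusted p = 0.00128). The spread of MRPL53 over the untreated arrays (SD 0.012, n = 3) was small beside this shift. MRPL36, a small relative of a bacterial large-subunit protein, had values of 10.75, 10.96 and 11.15 with LY317615 on its brighter probe set 8110861, against 10.38, 10.03 and 9.94 untreated. That is a change of 0.84 ± 0.14 (SE, adjusted p = 0.00188) with the widest spread of the family. A further probe set of MRPL36, 8180305, read 9.52, 9.31 and 9.62 with LY317615, against 9.65, 9.70 and 9.44 untreated, a change of -0.11 (adjusted p = 0.493 over all probe sets). The probe sets of MRPL36 therefore disagree, and their mean changed by 0.36 (adjusted p = 0.0296).

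The remaining 16 MRPL genes did not pass, with changes of -0.26 to 0.19. They were MRPL55, MRPL43, MRPL54, MRPL37, MRPL27, MRPL57, MRPL1, MRPL33, MRPL3, MRPL14, MRPL34, MRPL30, MRPL38, MRPL10, MRPL41 and MRPL11. The 95% intervals of 15 of them lay above -0.5 throughout, the exception being MRPL55 with a lower bound of -0.51. In 7 of these genes the treated arrays lay below all untreated arrays, where 27.8% of all genes were lower and 22.0% higher without overlap. Whether these 7 genes fell slightly was not resolved at this number of arrays. MRPL11, at the base of the stalk, was above all untreated arrays at 8.79, 8.78 and 8.88 with LY317615, against 8.64, 8.64 and 8.60 untreated (log2 fold change 0.19 ± 0.07, SE, adjusted p = 0.0693). MRPL16, just inside the threshold, had values of 7.97, 8.13 and 7.92 with LY317615, against 8.27, 8.42 and 8.16 untreated (log2 fold change -0.27, adjusted p = 0.049). MRPL43, just outside it, had values of 7.15, 7.04 and 6.91 with LY317615, against 7.21, 7.37 and 7.26 untreated (log2 fold change -0.25, adjusted p = 0.0546). In each of these genes the highest treated array came close to the lowest untreated one. The call of MRPL16 was lost without LY317615 array 1 or 3, without untreated array 1 or 2, with array weights, with the robust variance prior and after cyclic loess, while MRPL43 was called in 4 of the other fits.

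In the small subunit 18 of 25 genes fell, 0 rose and 7 did not pass. The shares over all genes were 21.4% lower and 14.2% higher. At an unadjusted p under 0.05 in limma, too, 0 MRPS genes were higher, and after cyclic loess 1 was (MRPS27). MRPS18A and MRPS30 followed MRPS22. MRPS18A, a relative of the bacterial small-subunit protein S18, had log2 intensities of 8.19, 8.36 and 8.18 with LY317615, against 8.97, 9.03 and 9.11 untreated. MRPS30 had values of 8.85, 8.95 and 8.93 with LY317615, against 9.65, 9.66 and 9.72 untreated. Their changes were -0.80 ± 0.08 and -0.77 ± 0.07 (SE), with no overlap. Despite their symbols, both proteins were found in the large subunit when the structure of the human mitoribosome was solved.

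MRPS2, MRPS35 and MRPS34 came next. MRPS2, a relative of a bacterial protein between head and body of the small subunit, had values of 8.10, 8.04 and 8.06 with LY317615, against 8.64, 8.67 and 8.78 untreated, a change of -0.63 ± 0.07 (SE). MRPS35, a mitochondrial protein of the head, had values of 9.68, 9.68 and 9.71 with LY317615, against 10.25, 10.40 and 10.29 untreated, a change of -0.62 ± 0.07 (SE). The 3 treated arrays of MRPS35 lay closer together than its untreated arrays (SD 0.015 and 0.078). MRPS34, needed for a stable small subunit, had values of 9.32, 9.21 and 9.06 with LY317615, against 9.84, 9.83 and 9.74 untreated, a change of -0.61 ± 0.09 (SE).

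The other 12 MRPS genes that fell changed by -0.59 to -0.21. They were MRPS23, MRPS9, MRPS18B, MRPS12, MRPS18C, MRPS25, MRPS17, MRPS7, MRPS31, MRPS10, MRPS5 and MRPS14. MRPS12, whose bacterial relative checks the match of codon and anticodon, had values of 7.36, 7.35 and 7.13 with LY317615, against 7.80, 7.90 and 7.79 untreated, a change of -0.55 ± 0.09 (SE). MRPS33, MRPS26, MRPS11, MRPS16, MRPS21, MRPS15 and MRPS27 did not pass, with changes of -0.12 to 0.08 and 95% intervals between -0.28 and 0.25. MRPS14, just inside the threshold, had values of 8.75, 8.73 and 8.65 with LY317615, against 8.92, 8.93 and 8.92 untreated (log2 fold change -0.21, adjusted p = 0.0439). MRPS33, the nearest outside it, had values of 8.17, 8.22 and 8.17 with LY317615, against 8.29, 8.32 and 8.30 untreated (log2 fold change -0.12, adjusted p = 0.201). The groups did not overlap in either gene. The call of MRPS14 was lost when any 1 of the 6 arrays was left out, with the replicate number as a block (adjusted p = 0.0742) and after cyclic loess.

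**Figure D3:**
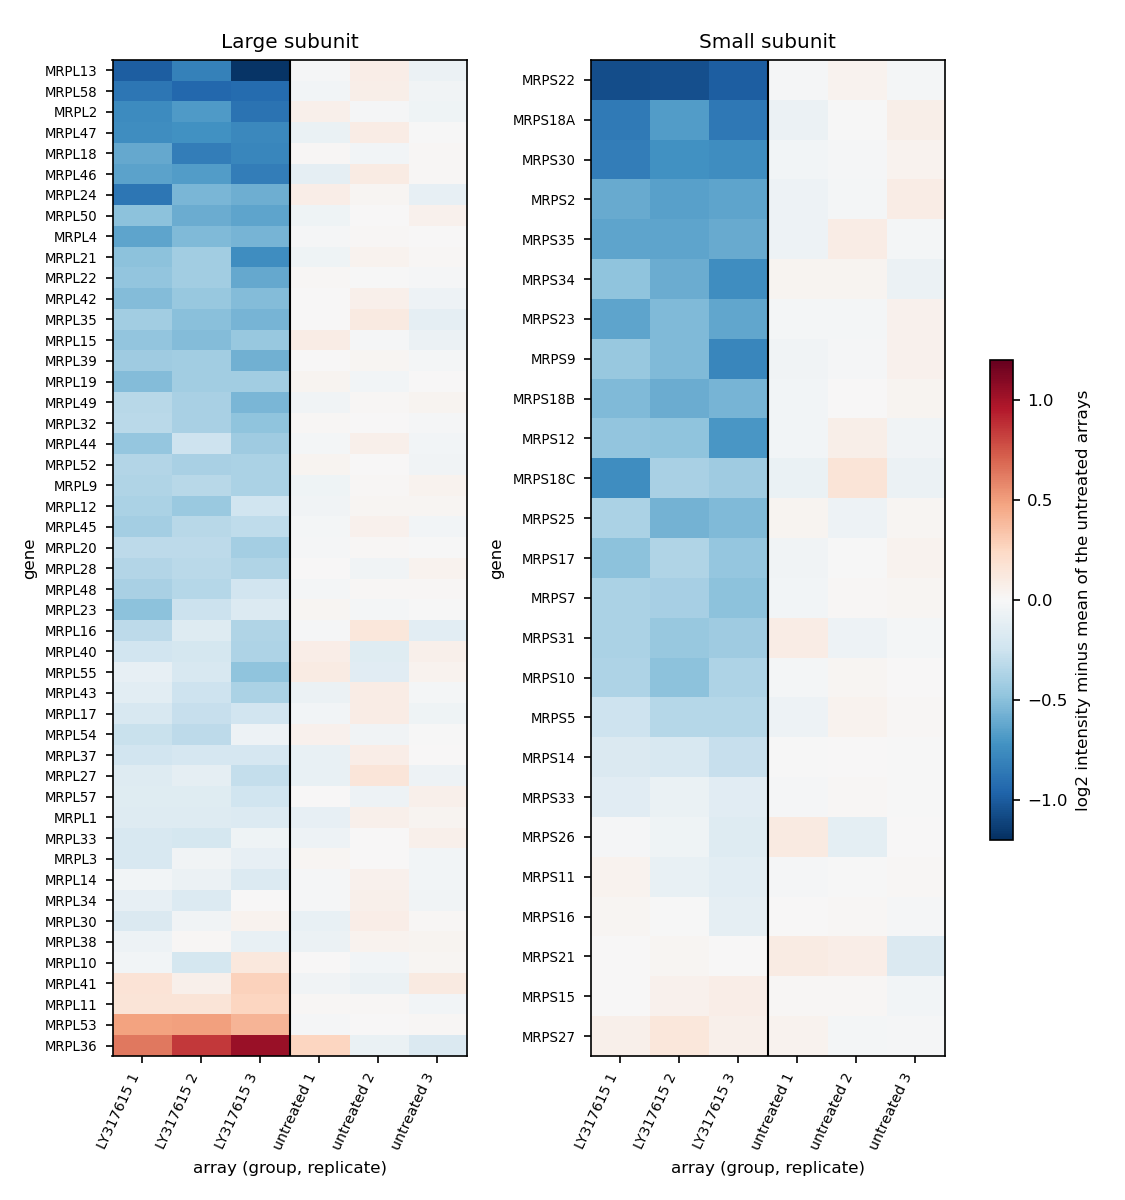
Log2 intensity minus the mean of the 3 untreated arrays (colour) for every gene (rows, ordered by change within the subunit) on every array (columns, LY317615 left of the black line, untreated right). The 3 columns of LY317615 are blue for most rows of each panel, with the deepest red in the rows of MRPL53 and MRPL36, and most of the untreated cells are near white.

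The large and small subunits were compared by symbol. Of the MRPL genes 62.5% fell, with a median log2 fold change of -0.35, and of the MRPS genes 72.0% fell, with a median of -0.44. Among all genes 21.4% were called lower, and the median was 0.02. The median of the large subunit was 0.09 above that of the small one. Against the mean of the untreated arrays, the median MRPL gene lay at -0.34, -0.32 and -0.37 on LY317615 arrays 1, 2 and 3, and the median MRPS gene at -0.38, -0.45 and -0.46. The median MRPL gene thus lay above the median MRPS gene by 0.04, 0.13 and 0.09 on LY317615 arrays 1, 2 and 3, against 0.013, 0.0065 and -0.0073 on untreated arrays 1, 2 and 3. The gap was positive on each LY317615 array. The untreated arrays were set against their own mean, so their gaps lie near 0 by construction and are no control. The 3 LY317615 gaps share that same mean and are not independent of each other. The genes were chosen with results known, so this gap was not tested and no p is given for it.

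With MRPS18A and MRPS30 counted in the large subunit, where their proteins sit, 32 of 50 large-subunit and 16 of 23 small-subunit genes fell. The medians were then -0.35 and -0.43, a gap of 0.08. The means were -0.34 and -0.37 in this grouping, against -0.32 and -0.40 by symbol, so they lay closer together. The SD over genes was 0.33 in the large and 0.28 in the small subunit, wider than the gap. The gene formerly called MRPS36, now KGD4, is left out of both, since its product is a part of the 2-oxoglutarate dehydrogenase complex. KGD4 had log2 intensities of 5.50, 5.84 and 5.70 with LY317615, against 6.50, 6.32 and 6.36 untreated. It fell by 0.71 ± 0.10 on the log2 scale (SE, adjusted p = 0.000937).

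Genes of bacterial descent and genes added in the mitochondrial lineage were counted apart, with no test between them. For comparison, 21.4% of all genes were called lower and 14.2% higher. In the large subunit, 19 of 30 genes with a bacterial relative fell and 1 rose, and 12 of 19 without one fell and 1 rose (medians -0.35 and -0.35, MRPS30 counted among the second). In the small subunit, 9 of 13 genes with a bacterial relative fell and 6 of 9 without one, and 0 rose in either (medians -0.41 and -0.49). MRPS18A and MRPS18B, which share 1 bacterial relative with MRPS18C, are counted with their paralogues instead.

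Genes were also grouped by their place in the mitoribosome, where each group is small and no test was made between groups. The lists need not hold every gene of a place. Called lower were 21.4% of all genes and 65.8% of the 73 genes, and called higher 14.2% of all genes. At the exit site of the peptide tunnel, the ribosome docks on the inner membrane. All 6 genes listed for it fell (MRPL47, MRPL24, MRPL22, MRPL45, MRPL23 and MRPL17), with a median of -0.43. MRPL45, which ties the large subunit to the membrane, had values of 10.69, 10.76 and 10.78 with LY317615, against 11.07, 11.15 and 11.06 untreated, a change of -0.35 ± 0.07 (SE). The calls of MRPL23 and MRPL17 were among those lost when single arrays were left out. Of 7 genes listed for the central protuberance 5 fell, MRPL27 and MRPL38 being the exceptions in the list (median -0.32). In the stalk list MRPL12 fell, while MRPL10 and MRPL11 did not pass (log2 fold changes of -0.04 and 0.19). Of 7 measured genes of the small-subunit head 6 fell, with MRPS33 as the exception (median -0.42).

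The genes for the S18 paralogues, MRPS18A, MRPS18B and MRPS18C, are relatives of 1 bacterial protein. All 3 fell, where 21.4% of all genes and 65.8% of the 73 genes were called lower. MRPS18B had log2 intensities of 9.05, 8.98 and 9.02 with LY317615, against 9.55, 9.58 and 9.61 untreated. MRPS18C had values of 6.12, 6.47 and 6.44 with LY317615, against 6.78, 7.02 and 6.79 untreated. Their changes were -0.56 ± 0.07 and -0.52 ± 0.11 (SE). The array holds 3 probe sets for MRPS18B with identical values, which were counted once, as were the 2 identical probe sets of MRPL20.

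**Figure D4:**
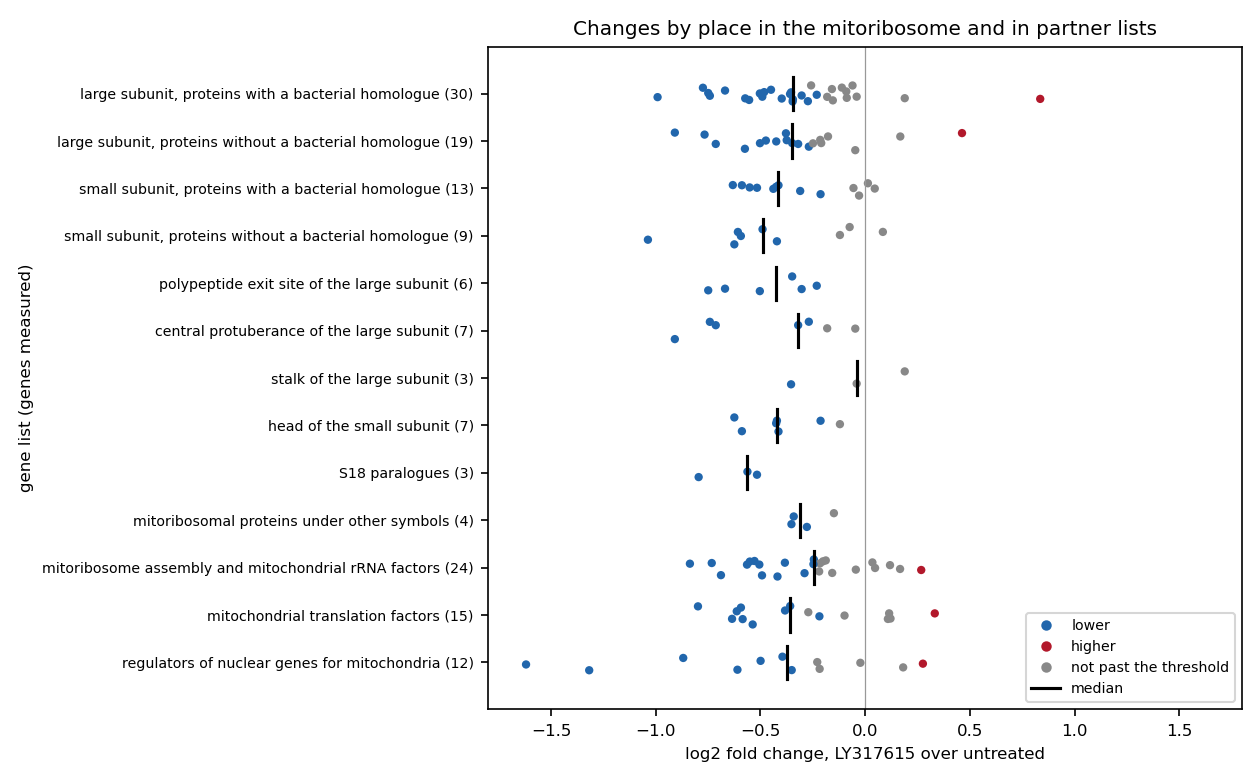
Log2 fold change of LY317615 over untreated (x axis) for each measured gene (points, spread vertically at random) of 13 lists (rows, number of genes in brackets); colours give the call and black bars the median. The row for regulators of nuclear genes for mitochondria also holds factors that act on mitochondrial DNA, such as TFB2M and TFAM. Every list has its median left of 0, and the stalk list, with 3 genes, has the median nearest to 0.

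Close copies may affect single values. RefSeq names at least 1 pseudogene for 38 of the 73 genes, and whether probes read these copies was not tested. Of the 35 genes without a named pseudogene, 23 fell and 0 rose, and of the 38 with one, 25 fell and 2 rose, so MRPL36 and MRPL53 belong to the second set. The medians of these sets were -0.35 and -0.38. Among all genes 21.4% were called lower and 14.2% higher.

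Partners of the mitoribosome were read from lists that are separate from the 73 genes. Their counts stand beside 21.4% of all genes called lower and 14.2% called higher. Of 5 mitoribosomal proteins with other symbols 4 were measured (median -0.31, or -0.10 with the median of the intensity bin taken off). Of these 4 genes 3 fell. These were CHCHD1 at -0.35 ± 0.09, PTCD3, which lies where the message enters, at -0.34 ± 0.08, and the GTP-binding protein DAP3 at -0.28 ± 0.07 (SE). The call of DAP3 was lost without untreated array 1 or 2 and after cyclic loess. GADD45GIP1 did not pass, at -0.15.

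Of 24 measured factors for mitoribosome assembly and mitochondrial rRNA, 13 fell and 1 rose (median -0.25). Once the median of the intensity bin was taken off, the median was -0.08 and 15 of the 24 lay below 0. GTPBP10, a GTPase of large-subunit assembly, fell by 0.84 ± 0.07 on the log2 scale (SE), and MRM3, which methylates the large ribosomal RNA, by 0.73 ± 0.07. MPV17L2 changed by -0.69 ± 0.08 and the pseudouridine synthase gene TRUB2 by -0.55 ± 0.07. The gene that rose, named after its value was seen, was NOA1, a GTPase of small-subunit assembly, at 0.27 ± 0.08 (adjusted p = 0.0355).

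Of 15 measured mitochondrial translation factors, 9 fell and 1 rose (median -0.36, or -0.16 with the median of the intensity bin taken off). The elongation factor genes TSFM and GFM1 changed by -0.80 ± 0.08 and -0.59 ± 0.08 (SE). TACO1, an activator of translation of a cytochrome oxidase subunit, changed by -0.64 ± 0.08, and the release factor gene MTRF1L by -0.61 ± 0.08. OXA1L, which inserts new proteins into the inner membrane, rose by 0.33 ± 0.07 and was named after its value was seen.

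A list of 12 genes joined regulators of nuclear genes for mitochondria with factors that act on mitochondrial DNA, such as TFB2M and TFAM. Of these 12 genes, 7 fell and 1 rose (median -0.37, or -0.17 with the median of the intensity bin taken off). TFB2M, a transcription factor for mitochondrial DNA, had log2 intensities of 8.15, 8.22 and 7.95 with LY317615, against 9.66, 9.73 and 9.78 untreated, a change of -1.62 ± 0.09 (SE). Its fall was larger than that of any mitochondrial ribosomal protein gene. TFAM, which packages that DNA, changed by -0.61 ± 0.08. PPRC1, a coactivator of the PGC family, changed by -0.87 ± 0.08. MYC changed by -1.32 ± 0.09. The gene that rose, ESRRA, a nuclear receptor that drives respiratory genes, changed by 0.28 ± 0.09 (adjusted p = 0.0336) and was named after its value was seen. Of 15 genes of mitochondrial DNA looked for by symbol, 0 were found among the genes measured, so they were not analysed here. They include the messages that the mitoribosome translates.

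Related families on the same arrays give a frame for these counts, beside 21.4% of all genes called lower and 14.2% called higher. Of 57 genes for proteins of the cytosolic ribosome, 1 fell and 22 rose, with a median log2 fold change of 0.17. Of 68 nuclear genes for subunits of oxidative phosphorylation, 26 fell and 6 rose, with a median of -0.16. After cyclic loess the medians were 0.24 for cytosolic ribosomal proteins, -0.06 for oxidative phosphorylation subunits, and -0.28 for the 73 mitochondrial ribosomal protein genes. When the median of the intensity bin was taken off instead, they were 0.36, 0.01 and -0.22 in the same order. All 3 families come from the same 6 arrays, and the differences between them were not tested.

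**Figure D5:**
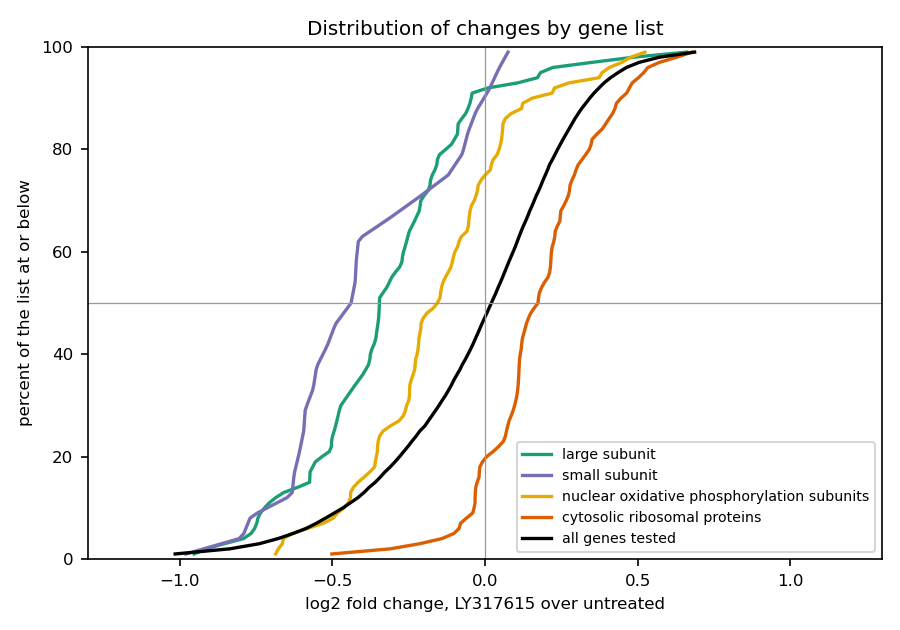
Percent of each list (y axis) with a log2 fold change of LY317615 over untreated at or below the value on the x axis, for MRPL genes, MRPS genes, 68 oxidative phosphorylation subunits, 57 cytosolic ribosomal proteins and all 18417 genes. At the 50% line the curves cross at -0.44 (MRPS), -0.35 (MRPL), -0.16 (oxidative phosphorylation), 0.02 (all genes) and 0.17 (cytosolic ribosome).

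Start-site sequence was set beside these changes for the 66 genes found in the RefSeq promoter table, each with 250 bases before and 50 after the start. The letters CCGGAAG, searched on both strands, occurred in 28 of them (42.4%), against 14.8% of the promoters of 13770 tested genes. They occurred in 16 of 42 genes that fell (38.1%) and in 12 of the other 24. AAGATGG, the core of the element bound by YY1, occurred in 21 genes (31.8%), against 6.55% of all promoters. It was found in 16 of the 42 genes that fell (38.1%) and in 5 of the other 24 (20.8%). CACGTG, the E-box bound by MYC and its partners, occurred in 6 genes (9.09%), against 8.95% of all promoters. The full palindromic NRF1 site occurred in 1 gene (1.52%), against 1.84%. The end of CCGGAAG and the start of AAGATGG share the letters AAG, so matches of these motifs can overlap. A match describes the sequence only.

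Many genes of the family start back to back with a neighbour. Of the 66 genes, 17 (25.8%) had a protein-coding gene of the same table that starts on the other strand within 1000 bases upstream, against 10.7% of the 13770 tested genes. In 1 case the neighbours are both of the family: MRPL46 and MRPS11 start 320 bases apart, and MRPL46 fell (-0.71) while MRPS11 did not pass (-0.06, adjusted p = 0.594). Of the 15 measured neighbours outside the family, 5 fell and 0 rose, where 21.4% of all genes were called lower and 14.2% higher. Of the 9 genes that fell beside such a neighbour, 3 had a neighbour that fell as well. These were MRPL18 with the chaperonin gene TCP1 (-0.45), MRPL49 with FAU (-0.47) and MRPS18B with PPP1R10 (-0.35). In the other 6 the neighbour did not pass, among them MRPS12 (-0.55) with SARS2, the mitochondrial seryl-tRNA synthetase gene (0.18, adjusted p = 0.155). PTCD2 fell (-0.51) beside MRPS27, which did not pass (0.08). Differences within a pair were not tested.

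Within the family, changes were also set beside levels. Across the 73 genes, which are not independent replicates and share the same arrays, the log2 fold change and the mean log2 intensity had a Pearson r of 0.10 and a Spearman rho of -0.01.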

How the data were processed

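The authors deposited linear-scale intensities for 33297 probe sets. The submitters' processing notes name RMA, GCOS 1.4 and Affymetrix Expression Console, and their order and a genome build were not stated in what was used here. Per the labels, the labelled target was made from 100 ng of RNA. Values were log2-transformed without a constant or rescaling. Genes were named from the platform annotation: 1 symbol was given for 19460 probe sets, several for 1754 and none for 12083. For each gene the probe set with the highest mean was kept (18417 genes). No detection calls or filters were used. No scan date or batch was known. Precision is limited by the number of arrays.

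All genes were fitted with limma 3.58.1 in R 4.3.3 (moderated t, two-sided, no covariates, 3 arrays against 3), and p-values were Benjamini-Hochberg adjusted over the 18417 genes, with 0.05 as the threshold. SEs come from that fit. The code was tested on simulated data. Lists are described by counts and medians, with no set test. Each list, its members and the rule for named genes (the 6 largest changes per subunit and direction, genes whose symbol and place differ, genes at the threshold, and up to 4 called genes of each other list) were chosen with earlier results of these data known. Members outside the rule are named to account for the whole family, and array values of MRPL11, MRPL12, MRPL45, MRPS12, MRPS18B, MRPS18C and TFB2M were added to it. The cell type markers, TCP1, FAU, PPP1R10, SARS2 and PTCD2 were named after their values were seen. Promoter sequences come from RefSeq (GRCh38.p14). Python 3.11.15 was used with numpy 2.4.6, pandas 2.3.3 and matplotlib 3.10.9. Alternatives tried were a block for the replicate number, each array left out, a variance prior with a trend, a robust prior, weights per array, equal array medians, cyclic loess, omission of the dimmest 30% of genes, averaged probe sets, a threshold of 0.01, a minimum log2 fold change of 1, subtraction of the median of 20 intensity bins, and subunits by structure. Leaving out genes with a named pseudogene was added after seeing the data.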

Additional observations from a re-analysis of the deposited data

How the results depend on the processing

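The 48 lower calls became 43 to 45 when single arrays were left out, and 41 to 53 under the other fits at an adjusted p of 0.05 or 0.01. Of the 48 genes, 39 were called lower under each of the 14 other fits, and 9 were not; 8 of the 9 lost the call after cyclic loess. The 2 higher calls were kept in all 14 fits. After cyclic loess 5 genes were called higher, with medians of -0.23 (MRPL) and -0.32 (MRPS), and MRPS33 had a change of 0.015, opposite in sign. With array medians set equal the medians were -0.42 and -0.52, and with the median of the intensity bin taken off -0.17 and -0.26. With a log2 fold change of at least 1 required, 1 gene was lower and 0 higher (0 MRPL and 1 MRPS lower). Without the genes that have a named pseudogene, 23 were lower and 0 higher, since fewer genes were counted. Leaving out single arrays gave 26 to 28 MRPL and 17 MRPS genes lower, medians of -0.35 to -0.33 and -0.46 to -0.43, and a gap of 0.08 to 0.11 between them. The replicate number as a block gave 45 lower and 2 higher calls (28 MRPL and 17 MRPS lower), with the medians as reported. Same-numbered arrays had deviations that correlated at -0.02, 0.09 and 0.07, and not every array correlated best with its own number. These small values cannot decide whether the numbers pair the samples, and the main fit did not pair them. Causes of these shifts were not tested beyond what the settings themselves change.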

Other observations

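Probe sets that carry the name of a further gene beside a mitochondrial ribosomal protein gene were fitted over all probe sets. The probe set of MRPS28 and TPD52 read 7.00, 7.06 and 6.61 with LY317615, against 7.62, 7.74 and 7.67 untreated, a log2 fold change of -0.78 (adjusted p = 0.00658). That of MRPL51 and SPTLC1 changed by -0.35 (adjusted p = 0.0217), and that of MRPS24 and its readthrough transcript URGCP-MRPS24 by -0.31 (adjusted p = 0.0216). The probe set of MRPS6 and SLC5A3 changed by 0.11 (adjusted p = 0.435). Which of the named genes these values stand for cannot be told from the annotation. The pseudogene MRPS31P5 had a change of -0.33 (adjusted p = 0.0885), beside -0.42 for MRPS31.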
